A study of Homo sapiens with 2 samples.

Results

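Distal intronic control peaks were the intervals of open chromatin, called in untreated 293T cells, that lay inside genes but away from their starts and exons. A peak of the control list counted as a member when it was on chromosomes 1 to 22, X or Y, lay more than 1000 bp from every transcript start of protein-coding and lncRNA genes of GENCODE 44 (GRCh38), and had its midpoint inside such a gene but in no exon. The rule took 10712 of the 35515 control peaks on these chromosomes (30.2%), and the members were 52.1% of the 20572 control peaks far from a start. Chromatin accessibility was measured by ATAC-seq, in which a transposase cuts open DNA and leaves sequencing adapters there, in 293T cells, an established human line of embryonic kidney origin. Control cells received fresh medium for 12 h, although a second label of that sample names PBS as the treatment. Treated cells received medium with 0.5 mM methylglyoxal (MGO), a reactive by-product of glycolysis that forms adducts on lysines and arginines. Each condition was 1 library of 50000 cells, without a replicate among the data used here, and what was compared were the 2 lists of peaks. A member was called kept when it overlapped any MGO peak by 1 bp or more. The data cannot tell MGO from any other difference between the 2 libraries, and every interval below is a 95% interval over peaks that covers counting error only.

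Most regulatory DNA of a human gene lies outside its promoter, and introns hold much of it. Enhancers are short stretches where transcription factors displace nucleosomes and from which they act on promoters over a distance, and sites of CTCF, a zinc finger protein that anchors chromatin loops, occur within introns as well as between genes. The first intron lies next to the promoter and is known to be rich in regulatory sites, while the introns of long genes for neuronal adhesion and guidance span most of their length.

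The 2 lists held 36142 and 22884 peaks in control and MGO cells, after the reads of both samples had been drawn at random to the same depth, as the methods of the study state. How many reads remained is not given in the sources used here, nor are read counts per peak. An overlap with the MGO list was found for 49.7% of the 35515 control peaks. As a check of the cell type, promoter peaks were present in control cells at all 5 genes used in 293T cells (VIM, NES, LIN28B, SALL1 and PAX2), with NES alone without one in the MGO list. By the same measure 13491 of 20033 protein-coding genes had one in control cells, so these 5 alone say little of cell type. Among 5 genes of other cell types, PTPRC, CD3E, ALB and INS had no promoter peak in either list and MYOD1 had one in control cells only.

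The sequences below show what kinds of DNA the members were. The first pair are the middles of the strongest member in the gene with the most members and of the strongest not kept member, by the −log10 p that the peak caller gave. The others are 60 bases around a motif in the strongest kept or not kept member that carried it, with the motif in capitals, on either strand. All are the plus strand of GRCh38, 5′ to 3′.
PCDH9, kept, strongest member in the gene with the most members, chr13:66835037-66835236: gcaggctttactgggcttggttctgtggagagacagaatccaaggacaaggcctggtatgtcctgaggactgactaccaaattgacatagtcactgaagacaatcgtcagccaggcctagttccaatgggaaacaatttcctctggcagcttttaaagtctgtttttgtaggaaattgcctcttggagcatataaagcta
MAP2, strongest not kept member, chr2:209476596-209476895: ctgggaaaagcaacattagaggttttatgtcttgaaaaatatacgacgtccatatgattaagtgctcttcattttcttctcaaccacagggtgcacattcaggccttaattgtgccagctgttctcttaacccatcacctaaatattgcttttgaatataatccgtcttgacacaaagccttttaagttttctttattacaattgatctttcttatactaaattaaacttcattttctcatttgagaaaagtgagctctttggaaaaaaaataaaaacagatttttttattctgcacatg
GPC3, not kept, CTCF, chrX:133792628-133792687: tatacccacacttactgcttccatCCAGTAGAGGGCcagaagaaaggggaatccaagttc
ENSG00000289153, kept, AP-1, chr3:115784402-115784461: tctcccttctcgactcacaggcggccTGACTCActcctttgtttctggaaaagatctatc
LINC01170, not kept, AP-1, chr5:124263782-124263841: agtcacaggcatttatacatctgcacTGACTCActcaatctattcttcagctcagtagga
FNIP2, kept, TEAD, chr4:158810385-158810444: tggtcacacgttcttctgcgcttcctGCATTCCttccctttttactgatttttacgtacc
LINC02240, not kept, TEAD, chr5:125275521-125275580: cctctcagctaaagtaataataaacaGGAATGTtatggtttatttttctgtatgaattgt

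The member of PCDH9, a protocadherin of neuronal adhesion, lay in intron 3 of 4 and was the strongest of its gene in both lists, with a −log10 p of 38.5 in control and 13.8 in MGO cells and a fold enrichment of 4.29 and 3.57. The member of MAP2, which encodes a microtubule-associated protein of dendrites, lay in intron 1 of 15, 52305 bp from the nearest start, and had a −log10 p of 18.1 and a fold enrichment of 4.73 in control cells with no MGO peak over it. It was the strongest of the 8515 members that were not kept.

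The members were weak peaks that seldom returned in the MGO list. Of 10712 members, 2197 were kept, or 20.5% (19.8 to 21.3), against 49.7% of all control peaks. The share was 28.5% among 9120 distal intergenic peaks, 26.8% among 740 distal exonic peaks, and 84.6% among 14943 peaks within 1000 bp of a start. The MGO list held 4219 distal intronic peaks, 0.394 times the number in control cells (0.380 to 0.408), against 0.505 times for intergenic peaks and 0.884 times for peaks at starts. The members covered 6.89 Mb and their MGO counterparts 2.43 Mb. The distal intronic class thus had the lowest ratio of these 3. With only the strongest control peaks, as many as there were MGO peaks, the ratio was 0.903 and 35.6% of distal intronic control peaks were kept, and with a reciprocal overlap of 50% the kept share was 13.1%.

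The new list was not a subset of the old. Of the 4219 distal intronic MGO peaks, 52.5% (51.0 to 54.0) overlapped a control peak. The same share over all MGO peaks is not given here, so whether it is particular to this class is not known. Where a member was kept, the MGO peak over it was in the same class in 98.2% of cases. Among 2189 pairs of 1 member with 1 MGO peak, the MGO peak was the narrower in 72.0%, with a median width of 542 bp against 757 bp and a median fold enrichment of 3.0 against 3.22. Wide members were more often kept, 39.7% in the widest of 5 equal groups against 7.28% in the narrowest. Part of these differences may thus follow from pairing only kept members. Over all distal intronic peaks the median width was 544 bp in control and 474 bp in MGO cells. The median fold enrichment was 2.92 and 2.91.

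Host genes were long, and a few long genes carried many members. Members lay in 5826 genes, 3879 of them protein coding, which is 19.4% of protein-coding genes, and 1947 lncRNA genes. A single member was found in 3523 hosts, 482 hosts had 5 or more, and 97 had 10 or more. Of protein-coding genes, 1.78% reached 5. Counting peaks of −log10 q 2 or higher, 125 genes had 5 or more, and with as many control as MGO peaks 107 did. The 482 genes held 33.0% of all members. Hosts had a median length of 111 kb and genes without a member 10.6 kb. Across the 5826 hosts, the Spearman correlation of gene length with member number was 0.574, given as a description over genes. Per megabase of bases that could hold a member, however, the number varied little with length, from 6.06 in genes under 20 kb to 7.63 in genes of 100 to 200 kb and 7.02 in genes of 1000 kb and over, around 7.26 for all hosts and non-hosts together. As groups, long genes thus held more members mainly over more bases, not at a much higher density. Single long genes did differ in density. Among the 12 hosts with the most members it ran from 1.21 per 100 kb of gene in CNTNAP2 to 5.17 in PCDH9. PTPRD, a gene of 2299 kb, had 0.218. Most members of PCDH9 had a low fold enrichment, as given below.

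PCDH9 had the most members, 48 over 928 kb (chr13:66302834-67230445, minus strand), of which 14 were kept. GPC5, which encodes a glypican, a heparan sulfate proteoglycan of the cell surface, followed with 36 members and 9 kept, and its chromosome 13 neighbour GPC6 had 23 with 3 kept. CNTNAP2, a neurexin-family adhesion gene and one of the longest human genes at 2305 kb, had 28 with 8 kept. NKAIN2 had 26 with 6 kept and GALNTL6, a polypeptide N-acetylgalactosaminyltransferase family member, had 25 with 6 kept. These genes kept between 13.0% and 29.2% of their members, around the 20.5% of the whole class.

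ROBO1 and ROBO2 encode receptors for the SLIT guidance proteins. ROBO2 had 23 members with 4 kept, and ROBO1 had 20 with 5 kept. GMDS, which encodes the enzyme that starts GDP-fucose synthesis, had 21 with 6 kept. TBC1D5, a Rab GTPase-activating protein of endosome traffic, had 21 with 4 kept. RBMS3, an RNA-binding protein gene, had 21 with 3 kept, and most of these are counted again in the overlapping gene ENSG00000283563, which had 22 with 4 kept. In all, 1131 members (10.6%) lay in more than 1 gene. All 12 of these top hosts had a promoter peak in both lists.

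**Figure D1:**
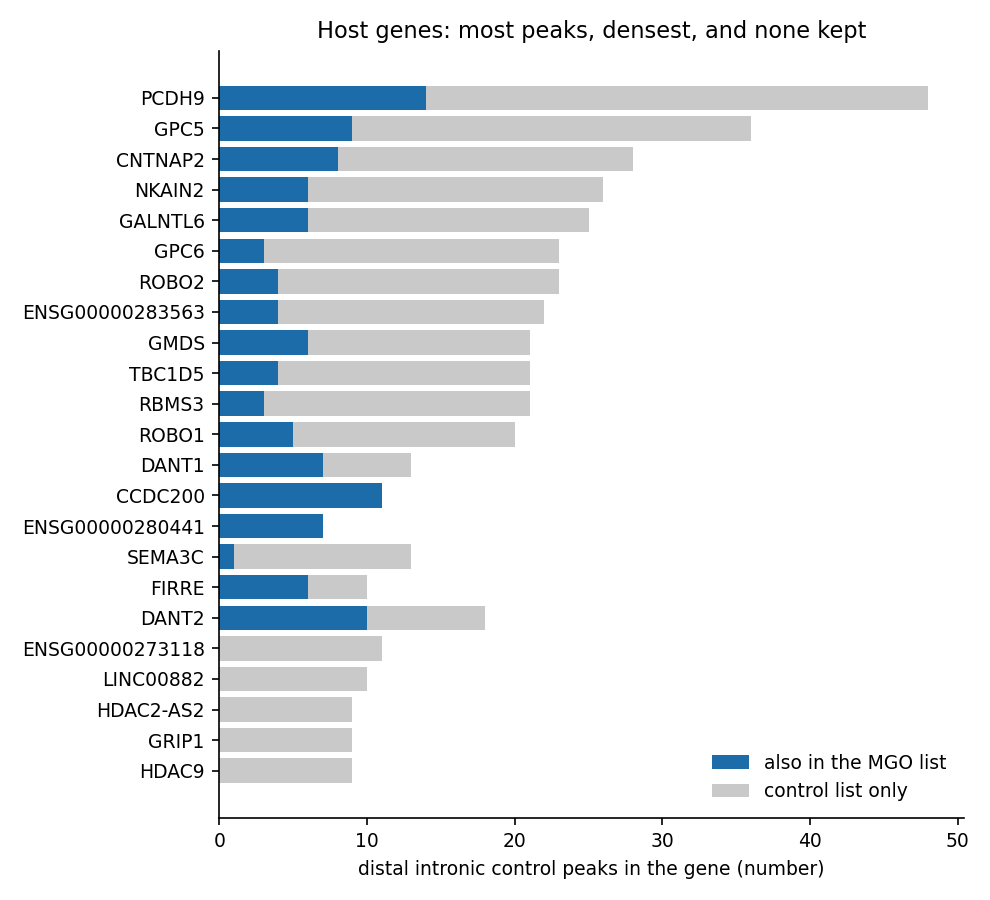
Number of distal intronic control peaks (x axis) in the 12 genes with the most, the 6 with the most per 100 kb and 5 with the most members and none kept, ties going to the shorter gene (y axis, in that order), with kept members in blue and the others in grey. PCDH9 had 14 of 48 kept, CCDC200 all 11 and HDAC9 none of 9.

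Along PCDH9 the members were spread over the introns rather than gathered in 1 place. In the middle introns lay 33 and in the last 15, with a median spacing of 15 kb. None lay in the first intron, but it runs only from 0.666 to 1.87 kb from the 5′ end. The rule, more than 1000 bp from every start, left it little room for a member. Their control −log10 p ran from 3.22 to 38.5 with a median of 4.34. The fold enrichments ran from 2.09 to 4.32, and nearly all were below 2.92, the median of all members. The high number of members in this gene was thus reached mostly with weakly enriched peaks. The 2 strongest stood 395 and 427 kb from the 5′ end, with values of 38.5 and 28.8 in control cells and 13.8 and 6.75 in MGO cells, so both were kept at a lower score. Both were picked for their control scores, from which a lower MGO score may follow. The strongest member that was not kept had a value of 10.5. The MGO list held 23 distal intronic peaks in the gene, and 9 of them overlapped no control peak.

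**Figure D2:**
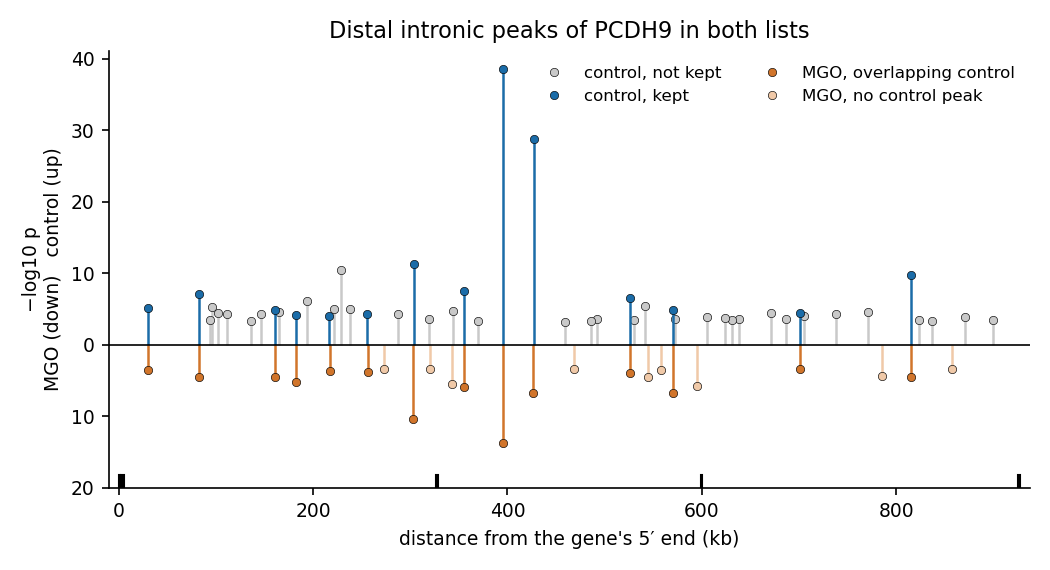
Distal intronic peaks of PCDH9 by distance from the 5′ end of the gene in kb (x axis) and −log10 p (y axis), with the 48 control peaks drawn upward and the 23 MGO peaks downward, and exons of the canonical transcript as black marks at the bottom. Darker points overlap a peak of the other list, and the 2 tallest control peaks, at 38.5 and 28.8, were both kept.

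Most hosts had fewer distal intronic peaks in the MGO list, 4628 of 5826, while 1069 had as many and 129 had more. Since hosts were chosen for their control peaks, part of this follows from the choice. No distal intronic MGO peak was left in 3383 hosts (58.1%). Of the 482 genes with 5 or more members, 107 kept none, 34 kept at least 50% and 2 kept all, with a median of 20%. The genes with most members and none kept were ENSG00000273118 and LINC00882, both lncRNA genes, with 11 and 10 members, and HDAC2-AS2, GRIP1 and HDAC9 with 9 each. CTNNA2, which encodes a catenin of neuronal cell contacts, tied with these at 9 members and none kept, but is longer, at 1464 kb, and ties were settled in favour of the shorter gene. GRIP1 encodes a scaffold of glutamate receptors and HDAC9 a class IIa histone deacetylase. In the first 5 genes the members had control −log10 p values of at most 9.43, 8.36, 5.45, 5.62 and 6.67. These 5 held 0, 2, 2, 0 and 1 distal intronic MGO peaks, all away from the control peaks. ENSG00000273118 had a promoter peak in the MGO list only, while LINC00882, HDAC2-AS2, GRIP1, HDAC9 and CTNNA2 had one in both lists.

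The densest hosts were of another kind. DANT1 and DANT2 are lncRNA genes at the macrosatellite DXZ4 of the X chromosome, a tandem array known to bind CTCF, though none of their members held the CTCF motif searched here. They had 13 members (19.4 per 100 kb) with 7 kept and 18 members (6.56 per 100 kb) with 10 kept, at a GC content of 40 to 74.3% in DANT2. DANT1 lies within DANT2, and all its members are counted in both. In DANT2, 15 of the 18 central windows were repeated in other peaks. FIRRE, an X-linked lncRNA gene with an array of its own, had 10 members with 6 kept, none of them repeated by the same measure. The kept members of FIRRE had a control −log10 p of 3.93 to 7.83 and MGO values of 3.47 to 5.58.

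CCDC200 on chromosome 17 had 11 members with a median spacing of 5.97 kb, all kept, with control −log10 p values of 5.01 to 42.0 and MGO values of 3.49 to 21.8. All 11 overlapped an annotated copy of the U2 small nuclear RNA gene, whose tandem array lies in this gene, and 10 of the 11 windows were repeated. ENSG00000280441, in the ribosomal RNA gene region of chromosome 21, had 7 members, all kept, with fold enrichments of only 1.39 to 1.71 in control cells. SEMA3C, which encodes a secreted guidance cue, contrasted with these at the same density range. It had 13 members (7.23 per 100 kb), no repeated window, and 1 kept. MIR181A1HG, the host of a miR-181 cluster, kept 5 of 7, and PRKAG2, which encodes a subunit of AMP-activated protein kinase, kept 4 of 6. These genes were named for their kept share or density, so their shares are a description.

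Windows repeated elsewhere in the control list were few but often kept. A window was called repeated when at least 50% of the 25-base words in its central 300 bp also occurred in the window of another control peak. This held for 486 members, of which 39.5% (35.3 to 43.9) were kept, against 19.6% of the other 10226. The difference was 19.9 percentage points, and at equal −log10 p it was 8.38 (4.69 to 12.1). Repeated windows made up 4.54% of members and 9.48% of intergenic peaks. The largest family held 320 members in 289 genes with 116 kept. No annotation of repeats was used here. Reads from near-identical copies cannot be placed with certainty, and its part in these values was not tested.

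A few very strong members resembled mitochondrial DNA. Nuclear copies of mitochondrial DNA are old insertions, and ATAC-seq libraries carry many mitochondrial fragments. There were 10 such members with an alignment of at least 100 bp, and 9 were kept. Among them were members of PCBD2, which encodes a pterin dehydratase, at a −log10 p of 268.4 and 125.5, and of AKAP6, which encodes a kinase anchoring protein, at 82.6, at identities of 97.9, 93.8 and 94.2%. In MGO cells their values were 241.5, 123.8 and 79.6. The exception was PCDH7, with 70.6% identity, which was not kept. Without repeated or mitochondria-like members 1996 of 10216 were kept (19.5%).

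The strongest members outside these kinds, chosen after their values were seen, lay in PDCD6-AHRR and AHRR, which encodes a repressor of the aryl hydrocarbon receptor (52.8 in control and 41.5 in MGO cells), in PCDH9 (38.5 and 13.8, and 28.8 and 6.75) and in ENSG00000287876 (32.8 and 20.1). IGFBP7-AS1 had one at 27.7 and 12.2, and ENSG00000289153 one at 21.8 and 18.9. All of these were kept with a lower score in MGO cells. Since they were chosen for their high control scores, a lower score in the other list may follow from the choice. Over all distal intronic peaks the median −log10 p was 4.18 in control and 4.22 in MGO cells. The strongest not kept members after MAP2 were in FAT3, an atypical cadherin gene (15.4), ULK4 (14.9), LAMA4, a laminin subunit gene (14.1), and DGKB, a diacylglycerol kinase gene (13.9). They lay in introns 17 of 27, 34 of 36, 6 of 38 and 21 of 25.

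The score of a control peak went with being kept. Median −log10 p was 4.18 over members, 5.73 over kept and 3.99 over not kept members. In 5 groups of equal size from the weakest to the strongest members, 5.41, 8.92, 13.5, 21.7 and 53.0% were kept. Distal intergenic peaks of the same score ranges were kept in 5.58, 11.2, 17.2, 29.1 and 65.0%. The intronic share was thus at or below the intergenic one in all 5 ranges, with intervals apart in the upper 3. The plain difference was −7.94 percentage points (−9.15 to −6.74). At equal −log10 p, weighting 20 score groups, it was −4.57 (−5.61 to −3.53), at equal fold enrichment −5.74, at equal width −7.70 and at equal GC −5.85. Without repeated and mitochondria-like peaks it was −5.82 (−7.03 to −4.61), and −3.56 (−4.63 to −2.50) at equal −log10 p.

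**Figure D3:**
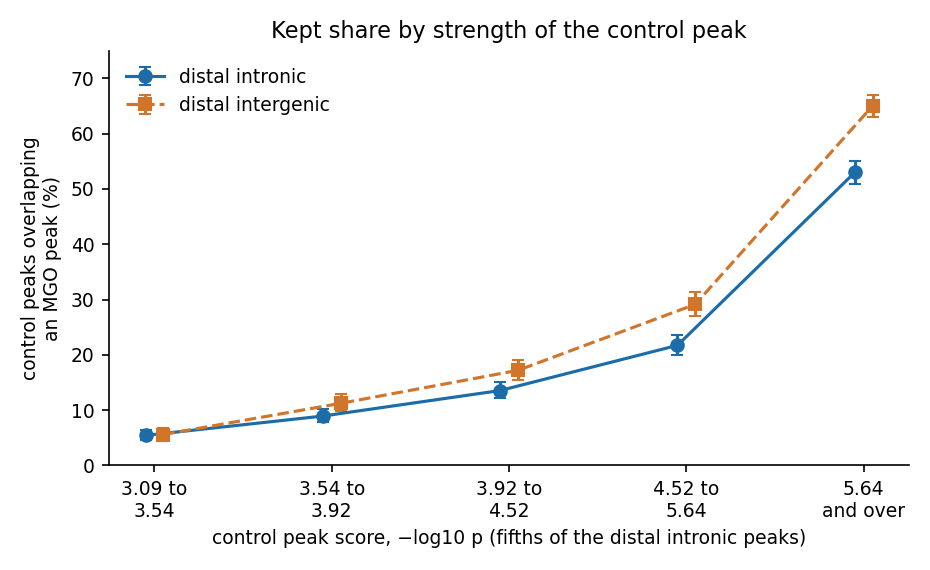
Share of control peaks that overlapped an MGO peak (y axis, percent) by the −log10 p of the control peak (x axis, in 5 equal groups of the distal intronic peaks), for distal intronic peaks (blue circles) and distal intergenic peaks in the same ranges (orange squares), with 95% Wilson intervals. The share rose from 5.41 to 53.0% for intronic and from 5.58 to 65.0% for intergenic peaks.

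Against distal exonic peaks the difference was −6.25 percentage points (−9.64 to −3.09) and −5.69 (−8.54 to −2.85) at equal −log10 p, but −0.0756 (−3.23 to 3.08) at equal GC. Exonic peaks had a median GC content of 51.0% and members 43.7%. Against peaks at starts the difference was −64.1 points, and −35.5 at equal −log10 p. GC content also went with being kept among the members themselves. Of 834 members with at least 60% GC, 45.7% were kept, against 18.4% of the others. Of 5092 members with a −log10 q of at least 2, 33.9% overlapped some MGO peak.

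Members were laid out almost evenly along their genes. Of 9402 members in an intron of the canonical transcript, 29.2% (28.3 to 30.1) were in the first or only intron, which held 27.5% of the bases that could hold a member, a ratio of 1.06. Middle introns held 59.6% of members and 62.0% of bases, and last introns 11.3 and 10.5%. In 5 equal stretches of the gene from its 5′ to its 3′ end, the ratio of the members' share to the bases' share was 0.968, 1.01, 1.01, 0.964 and 1.05. Once bases near starts were left out, the excess in first introns was thus 1.69 percentage points (0.783 to 2.62).

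**Figure D4:**
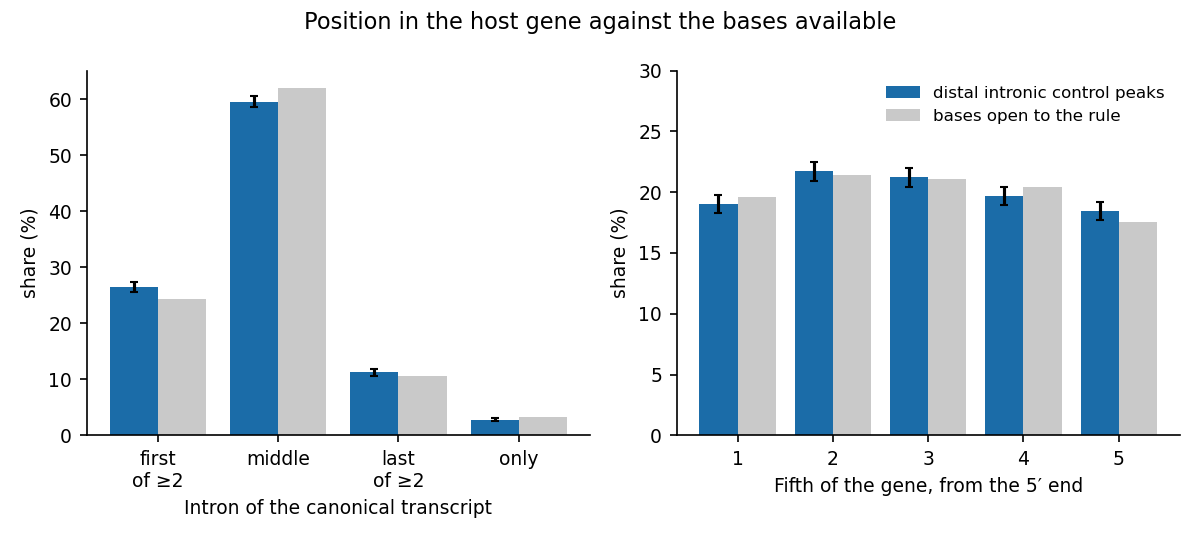
Share of distal intronic control peaks (blue, with 95% Wilson intervals) and of the bases that could hold one (grey) by intron of the canonical transcript (left, percent of 9402 peaks) and by 5 equal stretches of the gene from its 5′ end (right, percent of 10712 peaks). Peaks and bases differed by at most 2.44 percentage points.

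Position told little about being kept. In first or only introns 21.4% of 2743 members were kept and in later introns 19.3% of 6659, a difference of 2.05 percentage points (0.273 to 3.88), or 1.68 (0.0898 to 3.28) at equal −log10 p. With each host weighted equally it was 1.07, and the interval included 0 under 4 other choices of peaks, overlap or chromosomes. Of 262 members in the only intron of a gene 28.6% were kept, and of 2481 in the first of 2 or more introns 20.6%. Members 1000 to 2000 bp from a start were kept in 25.4% of 568 cases, close to the 25.6% of 340 intronic peaks at 500 to 1000 bp, just outside the rule. From 2000 bp on the share lay between 18.6 and 21.4%. A group of 189 members lay within 1000 bp of the start of a gene of another type, such as a small RNA or pseudogene, and 39.7% of these were kept, against 20.2% of the rest.

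Open host promoters went with more members but, over both host types together, not with more kept ones. Hosts and non-hosts with a control promoter peak had 7.75 members per megabase of available bases, and genes without one had 6.08. Of 8090 members in the former 20% were kept, and of 2622 in the latter 22.2%, a difference of −2.28 points (−4.13 to −0.499), or −1.63 (−3.21 to −0.0436) at equal −log10 p. The direction differed by host type. With and without a control promoter peak, 19.4 and 23.4% were kept in protein-coding hosts, but 23.4 and 21.5% in lncRNA hosts. Promoter peaks were counted at any start of a gene, so those of the 2 lists may be at different starts. Where the host had one in control cells, it also had one in the MGO list for 93.5% of not kept members (6052 of 6476). For kept members this was so in 93.4% (1507 of 1614). Both shares were near the 92.2% of all 3850 host genes with a control promoter peak that also had one in the MGO list. Kept and not kept members in such hosts thus alike mostly lay in genes with an MGO promoter peak, not necessarily at the same start. Members hosted by protein-coding genes were kept in 19.9% and those hosted by lncRNA genes in 22.3%.

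Over the 4 gene lists the density of members ran from 7.0 to 15 per megabase of available bases, on few members outside the first list. All 20 genes for neural adhesion and axon guidance had members, against 19.4% of protein-coding genes, and their median length was 456 kb. They held 116 members, 8.39 per megabase of available bases against 7.26 over all genes, with 22 kept (19.0%). After ROBO2 and ROBO1 came SLIT3, a ROBO ligand, with 12 members and 2 kept, and UNC5C, a netrin receptor, with 9 and 2 kept. PTPRD, a receptor phosphatase gene of 2299 kb, had 5 and NRXN3 6, none of them kept.

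In the Hippo pathway, which restrains the transcriptional co-activator YAP1, 8 of 15 genes (53.3%) had members, against 19.4% of protein-coding genes. Protein-coding genes with a member had a median length of 122 kb and those without 19.4 kb. The median was 81.3 kb in the Hippo list, 65.4 kb in the WNT list and 107 kb in the focal adhesion list. The part of length in these shares was not tested. The Hippo genes held 17 members, 13.7 per megabase of available bases, with 4 kept. All 4 were among the 7 members of TEAD1, the DNA-binding partner of YAP1, while the 2 in YAP1 were not kept. In the WNT pathway 8 of 15 genes (53.3%) had 16 members, 15 per megabase, with 3 kept, among them 1 of 5 in TCF7L2, a transcription factor of the pathway, and 1 of 3 in GSK3B, its kinase. Of 19 focal adhesion and actin genes, 12 (63.2%) had 18 members, 7.0 per megabase, with 3 kept, with 3 members each in TNS1 and PXN. The share kept was 23.5, 18.8 and 16.7% in these lists, on counts too small to set apart from 20.5%. The densities rest on the same few members and have no intervals, so no difference between the lists is drawn from them. A member in overlapping genes was counted for each of them here, but once in the density over all genes.

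Motifs were searched in the central 300 bp on both strands. The CTCF motif, which the GPC3 stretch above carries, was found in 394 members (3.68%), against 2.85% of all control peaks, 4.52% of distal intergenic peaks and 0.0934% of windows 5000 bp away from the members. It was thus no more frequent in members than in intergenic peaks. Of kept members 3.0% had it and of not kept members 3.85%, a difference of −0.848 points (−1.62 to 0.0413), which was −2.35 (−3.44 to −1.03) with a −log10 q of at least 2. Members with the motif differed in kept share from those without by −3.13 points at equal −log10 p (−6.61 to 0.350) and by −5.49 at equal GC (−9.21 to −1.77). The former interval includes 0 and the latter does not. The motif was rarer in first introns, at 2.41%, than in later ones, at 4.05%.

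The AP-1 motif (TGACTCA or TGAGTCA), bound by FOS and JUN dimers that respond to stress and growth signals, was found in 716 members (6.68%), against 4.78% of all control peaks, 6.27% of distal intergenic peaks and 4.78% of windows 5000 bp away. It was in 11.3% of kept and 5.50% of not kept members, a difference of 5.79 points (4.44 to 7.26). The same letters read backwards, which keep the base composition, differed by −0.443 (−1.34 to 0.581). Searched in the whole peak the difference was 14.8 points, with a median width of 757 bp for kept and 499 bp for not kept members. With the motif 34.6% of members were kept and without it 19.5%, and at equal −log10 p the difference was 14.0 points (10.7 to 17.2). Among intergenic peaks it was 6.82 (3.31 to 10.3), and the difference between the 2 classes was 7.13 (2.35 to 11.9). A kept AP-1 member such as that of ENSG00000289153 and a not kept one such as that of LINC01170 carried the same 7 bases.

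The TEAD motif (ACATTCC or GCATTCC), bound by the partners of YAP1, was in 8.40% of members, against 6.98% of all control peaks, 9.66% of distal intergenic peaks and 7.65% of windows 5000 bp away. It was in 7.60% of kept and 8.61% of not kept members, a difference of −1.01 (−2.21 to 0.310). At equal −log10 p, members with it differed in kept share by −1.98 points (−4.38 to 0.411), and intergenic peaks by 3.17 (0.481 to 5.86). The difference between the classes was −5.15 (−8.75 to −1.55). The SP1 motif (GGGCGGG), known from promoters, was in 4.44% of members. It was in 21.9% of all control peaks, 6.77% of distal intergenic peaks and 44.1% of peaks at starts. Of kept members 10.8% had it and of not kept members 2.81%, and for the ETS motif (CCGGAAG) these were 1.82 and 0.940%. At equal −log10 p the SP1 difference in kept share was 19.7 points in members and 15.2 in intergenic peaks. The classes differed by 4.50 (−0.794 to 9.80). At equal GC the SP1 motif still went with a kept share 15 points higher (10 to 20), while for ETS the difference was 2.74 (−5.34 to 10.8). The GATA motif (AGATAAG) was in 5.51% of kept and 5.63% of not kept members. At equal −log10 p, members with it differed in kept share by −1.22 points (−4.19 to 1.75), and intergenic peaks by −7.55 (−10.9 to −4.21). The difference between the classes, 6.34 (1.87 to 10.8), thus came from a lower kept share among intergenic peaks. The motif for TCF and LEF factors (ATCAAAG) was in 4.10% of kept and 4.62% of not kept members. The octamer (ATGCAAAT), bound by POU factors, was in 1.64 and 2.0% of them. For the cyclic AMP response element (TGACGTCA) they were 0.319 and 0.176%, and for the NFI motif 0.0910 and 0.0822%. In these last 5 motifs the interval of kept minus not kept included 0. Motif matches are descriptions of the letters, and binding was not measured. AP-1 and SP1 thus differed most between kept and not kept members, and both also went with being kept among intergenic peaks.

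**Figure D5:**
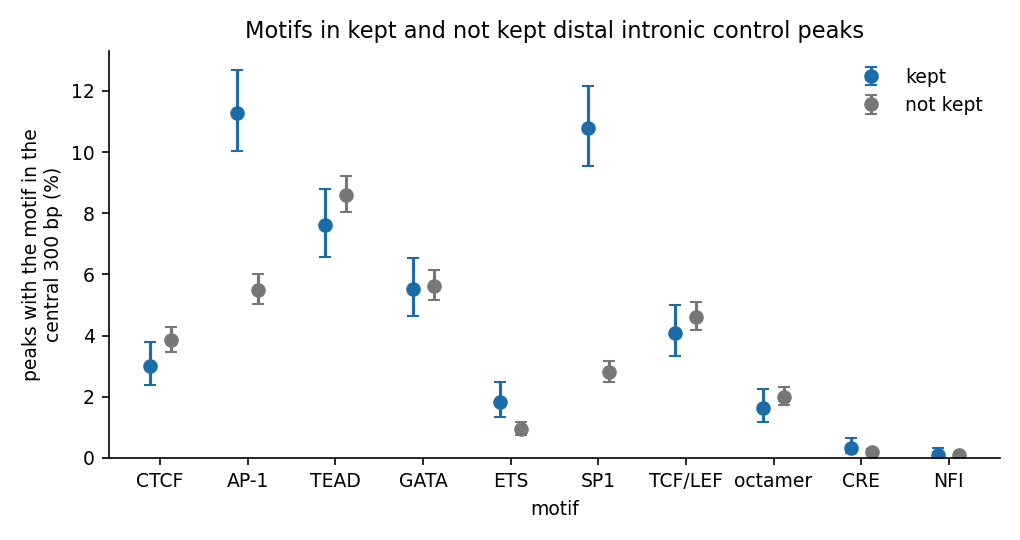
Share of kept (blue) and not kept (grey) distal intronic control peaks with each motif in the central 300 bp (y axis, percent), with 95% Wilson intervals, for the 10 motifs searched (x axis). AP-1 stood at 11.3 against 5.50% and SP1 at 10.8 against 2.81%, while the CTCF intervals overlapped.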

How the data were processed

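ATAC-seq was done on 1 control and 1 MGO-treated sample of 293T cells. Per the submitters' notes and methods, reads were aligned to GRCh38 with BWA 0.7.15, mitochondrial and multi-mapping reads were removed, both samples were drawn at random to the same depth, and broad peaks were called with MACS2 outside blacklisted regions. The MACS2 version is not given in the sources used here. The methods used peaks of a −log10 q above 2 downstream, which 47.5% of members reached, and the deposited lists also hold weaker ones. The deposited peak lists give, for each sample's own broad peaks, a fold enrichment (a ratio to local background), a −log10 p, a −log10 q and a display score, all made by the authors with their peak caller. The lowest −log10 q was 1.01 in both lists. Scores were not used in a test.

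Overlaps, classes and positions were computed with numpy 2.4.6 and pandas 2.3.3, overlaps were checked with bedtools 2.31.1, and mitochondrial resemblance was taken from blastn 2.17.0 (E-value at most 1e-10). Bases that could hold a member were those where a peak of the median width, 544 bp, would meet the rule. Intervals are Wilson for shares, Newcombe for differences and Mantel-Haenszel weighted over 20 groups for differences at an equal value. These functions were tested on simulated data. With 1 library a condition no test between conditions was made. Peaks in 1 host share a gene and are not replicates.

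Members, gene lists, motifs and naming rules were chosen with earlier results of these data known. Named hosts were the 12 with most members, the 6 densest and the 5 with the highest kept share among genes with 5 or more members, 5 with most members and none kept (ties to the shorter gene, which left out CTNNA2), and genes of 4 lists. Named members were the 5 strongest kept and not kept. The next 5 strongest kept members without repeated or mitochondria-like sequence were added after their values were seen. Some items are not reported here.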

Additional observations from a re-analysis of the deposited data

How the results depend on the processing

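Each of the 11 main results was recomputed under 7 alternatives, and some under further ones, 87 values in all. None changed sign, 63 stayed within the main interval (or within 1.5 times a count), and 24 did not. With a −log10 q of at least 2 in both lists, 21.4% of members were kept, the difference from intergenic peaks was −11.7 points (−7.44 at equal −log10 p), that from peaks at starts −62.1, the number ratio 0.341, the genes with 5 or more members 125 and the CTCF difference −2.35. With as many control peaks as MGO peaks, these were 35.6%, −11.8 (−7.67 at equal −log10 p), −56.3, 0.903, 107 and −1.96, and the difference from exonic peaks was −11.9. A reciprocal overlap of 50% left 13.1% kept and a difference of −62.3 from peaks at starts, which was −61.4 at 2000 bp from every start and −63.1 with starts of every gene type. Against intergenic peaks, equal fold enrichment gave −5.74 and equal width −7.70. Searched in the whole peak, the AP-1 difference was 14.8, and kept peaks were wider. Without repeated or mitochondria-like peaks, an alternative chosen after seeing the data, 19.5% were kept and the difference from intergenic peaks was −5.82.

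The CTCF interval excluded 0 under 5 alternatives and included it under the others, and the interval of first minus later introns included 0 under 4. The number ratio and the count of genes do not depend on the overlap rule. Without read counts per peak, a peak absent from a list cannot be told apart from one just under the caller's threshold. No paired analysis was possible because each condition had 1 library.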

Other observations

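The number of distal intronic control peaks per megabase of available bases differed between chromosomes. It was highest on chromosomes 13, 6 and 1, at 11.1, 10.6 and 10.2, and lowest on chromosome 16, at 3.59, apart from Y with 3 members. 293T cells are known to carry uneven chromosome copy numbers, which were not measured here, so their part in these values was not tested. The share kept was 42.7% on chromosome 19 (41 of 96, 33.3 to 52.7) and 31.3% on chromosome 17, or 25.7% there without repeated windows. The share was 15.4% of 117 on chromosome 20 and, without repeated windows, 13.9% of 101 on chromosome 21.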
